A study of Homo sapiens with 9 samples.

Results

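The 10 genes described here encode transcription factors and a coactivator of the B cell lineage: PAX5, EBF1, IKZF1, IKZF2, IKZF3, FOXO1, LEF1, BACH2, IRF4 and POU2AF1. They were chosen by gene symbol among the 62700 genes of the deposited tables, with the transcript rows of each gene summed, and all 10 passed the filter on low counts. The cells were HAL-01, an established line of acute lymphoblastic leukemia of the B lineage (B-ALL) with the t(17;19) translocation, which joins TCF3 to HLF and yields the fusion protein TCF3::HLF. All 9 libraries came from HAL-01 cells carrying Cas9 and GFP, harvested on day 13. The groups were sgRNA_96 and sgRNA_97, which together form the MEF2C-enhancer KO class and are directed at the HLF motif of a TCF3::HLF-bound enhancer of MEF2C, and SCR1, a scrambled control guide. Each group held 3 libraries, numbered 1, 3 and 4. All of them derive from a single cell line, nothing in the labels says that the replicates were separate cultures, and the p-values then measure the spread between these libraries, which may be technical.

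B cell identity is built by a small circuit of DNA-binding proteins. EBF1 and PAX5 switch on the genes of the pre-B cell receptor and its signaling and hold alternative fates shut, FOXO1 supports the expression of the recombination genes, and the Ikaros family (IKZF1, IKZF2 and IKZF3) tunes the passage from a dividing to a resting pre-B cell. LEF1 is a nuclear partner of β-catenin, BACH2 is a repressor that delays the plasma cell program, IRF4 acts in light chain rearrangement and in plasma cells, and POU2AF1 (OBF-1) is a coactivator that sits on octamer-binding proteins. Several of these genes are recurrently deleted or mutated in B-ALL, PAX5 and IKZF1 above all.

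The study listed 3 guides for this enhancer, and those that cover the HLF motif are shown because this motif is the stated target. Each is written 5′ to 3′ with the HLF-type core in capitals, and both lie on the minus strand of chromosome 5 (hg38).
E.1: tagcaTTACATAAtacatgt
E.2: ttagcaTTACATAAtacatg
E.1 matched chr5:88825103-88825122 and E.2 matched chr5:88825104-88825123, each at a single place on that chromosome, with the PAM GGG for E.1 and TGG for E.2. Which of the 3 listed guides are sgRNA_96 and sgRNA_97 was not given in the sources used here. The third guide, E.3, carried no match to the core and lay downstream at chr5:88825164-88825183. The plus strand across the 3 sites, with the same core in capitals, reads as follows.
Enhancer window, chr5:88825083-88825203: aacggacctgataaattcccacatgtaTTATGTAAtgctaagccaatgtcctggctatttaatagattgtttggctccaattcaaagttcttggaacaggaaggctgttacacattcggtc
The core occupied chr5:88825110-88825117. It lay within MEF2C (88717117 to 88904257, minus strand), 58074 bases from the start of its canonical transcript, in no annotated exon of GENCODE release 44, and is therefore intronic.

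Totals ranged from 15212462 to 29777361 counts per library. MEF2C, the gene in whose intron the motif lies, averaged 552 CPM in the controls (SD 13.4, n = 3) and 509 CPM after KO (SD 22.1, n = 6), where CPM are counts scaled to a library size of 1000000. Its log2 fold change of -0.12 (SE 0.04) did not pass the test used throughout, the quasi-likelihood test of edgeR adjusted by Benjamini-Hochberg (adjusted p = 0.062, threshold 0.05). The library labelled sgRNA_97 replicate 1 lay within the range of the controls at 553 CPM, and without it the log2 fold change of MEF2C was -0.14 with an adjusted p of 0.0143, and 5 of the 10 factors passed, as with it. DESeq2 gave MEF2C an adjusted p of 0.0269 with all libraries. MEF2C passed under no other alternative analysis, leaving out any other library included. There its adjusted p ran from 0.0569 (edgeR on length-scaled counts) to 0.187 (limma on log2(TPM + 1) without a filter). Mitochondrial genes took 5.97 to 6.35% of the counts in SCR1 and 6.22 to 7.01% in KO, and their part in the results was not tested. The cells carried B lineage markers at a summed 4910 to 5130 CPM in SCR1 and 5340 to 5630 CPM in KO. In that list MME, a surface peptidase of early B cells, rose by 0.50 on the log2 scale (adjusted p = 2.45e-06) and DNTT, the terminal transferase, rose by 0.26 (adjusted p = 0.000328), and none of its other 7 genes passed. All 8 T cell markers and all 7 erythroid and megakaryocyte markers averaged under 1 CPM, with CD3D, CD3E, CD3G, GATA1 and HBB at 0. Of 7 myeloid markers 4 could be tested, their sum was 29.4 to 34.7 CPM in SCR1 and 29.1 to 34.4 CPM in KO, and MPO, a granule enzyme, was higher in KO (2.75 against 5.82 CPM, log2 fold change 1.08, adjusted p = 0.000894). The other 3 did not pass in KO: CEBPE was at 0.82 (adjusted p = 0.0974), CEBPA at -0.32 (adjusted p = 0.0741; 0.0347 with sgRNA_97) and CSF1R at -0.21 (adjusted p = 0.124) on the log2 scale. The sum of the 5 stromal markers was 19.6 to 24.1 CPM in SCR1 and 17.4 to 20.9 CPM in KO, nearly all from PDGFRB, and COL1A2, DCN and LUM were at 0.

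The first question was how abundant each factor is in these cells. Levels between genes were compared as TPM, which divide by transcript length. LEF1 led in TPM, at 637 ± 52.9 (SD, n = 3) in SCR1, above 98.8% of the genes tested by its mean over the 9 libraries. PAX5 followed at 96.3 ± 3.70 TPM, POU2AF1 at 83.3 ± 7.81 TPM, EBF1 at 77.2 ± 5.22 TPM and IKZF1 at 57.6 ± 3.01 TPM (SD, n = 3 each). FOXO1 stood at 34.6 ± 2.38 TPM, BACH2 at 22.4 ± 2.72 TPM, IRF4 at 21.1 ± 0.499 TPM and IKZF2 at 11.3 ± 1.12 TPM. IKZF3 was the lowest at 0.840 ± 0.0556 TPM, above 13.3% of the genes tested. In SCR1 the libraries of neighbors in this order overlapped for POU2AF1 with EBF1 and for BACH2 with IRF4, and for no other pair of neighbors. The order of the means was the same in KO. There, however, IKZF1 (45.5 to 54.2 TPM) and FOXO1 (42.1 to 50.7 TPM) overlapped, which in SCR1 were apart at 54.9 to 60.9 TPM and 32.7 to 37.3 TPM. BACH2 and IRF4 overlapped in KO as well, and POU2AF1 (81.2 to 87.0 TPM) and EBF1 (66.8 to 74.7 TPM) did not. Part of the LEF1 TPM was assigned to short transcripts without an annotated coding sequence. In SCR1, LEF1-211 (1084 bases) held 16.8% of it and LEF1-205 (1479 bases) 14.3%. Since TPM divide by length, the size of the LEF1 margin depends on that assignment. In CPM, which do not, LEF1 averaged 751 and PAX5 568 in SCR1. LEF1 and an antisense gene, LEF1-AS1, share the locus, and the sources used here do not say if reads were counted by strand. LEF1-AS1 averaged 226 counts per library against at least 11716 for LEF1. A gene opposite IKZF2, ENSG00000270659, averaged 44.8 counts, and the genes that overlap the other 8 factors averaged at most 3.6 counts.

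**Figure D1:**
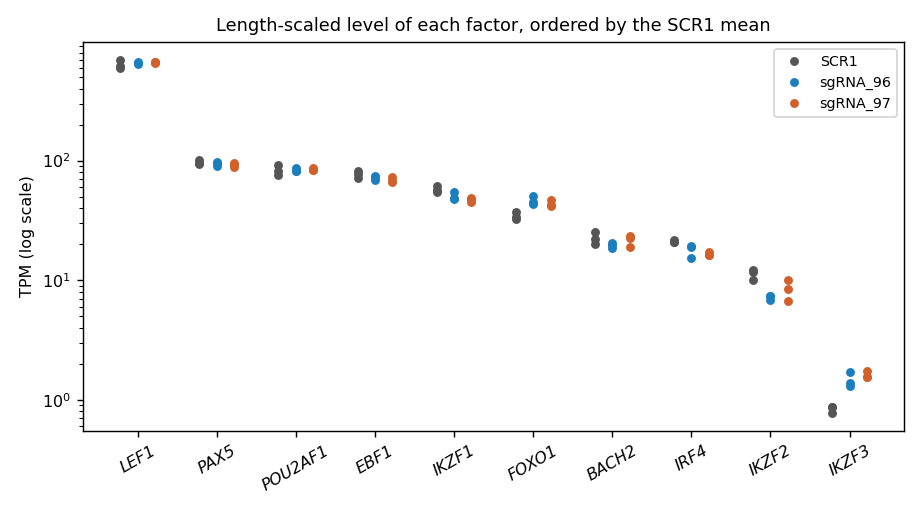
TPM on a log axis for each factor, ordered by the SCR1 mean, with 1 point per library (3 SCR1, 3 sgRNA_96, 3 sgRNA_97). LEF1 sits between 600.1 and 698 TPM and IKZF3 between 0.777 and 1.73 TPM, and the IKZF1 and FOXO1 points approach each other in the KO libraries.

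The main comparison asked which of these factors differ after the HLF motif of the MEF2C enhancer is targeted. In KO against SCR1, 5 of the 10 passed the test, where 20.7% of the 14436 genes tested did. IKZF3 and FOXO1 rose, where 10.1% of all genes tested passed as higher, and IKZF2, IRF4 and IKZF1 fell, where 10.6% passed as lower. In these 5 genes all 6 KO libraries lay on the same side of all 3 SCR1 libraries, a separation that 20.3% of the genes tested showed. PAX5, EBF1, LEF1, BACH2 and POU2AF1 did not pass. The median log2 fold change of the 10 was -0.06, beside 0.003 over all genes tested. These are bulk RNA levels, in which fewer cells with a transcript and less of it per cell cannot be told apart.

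**Figure D2:**
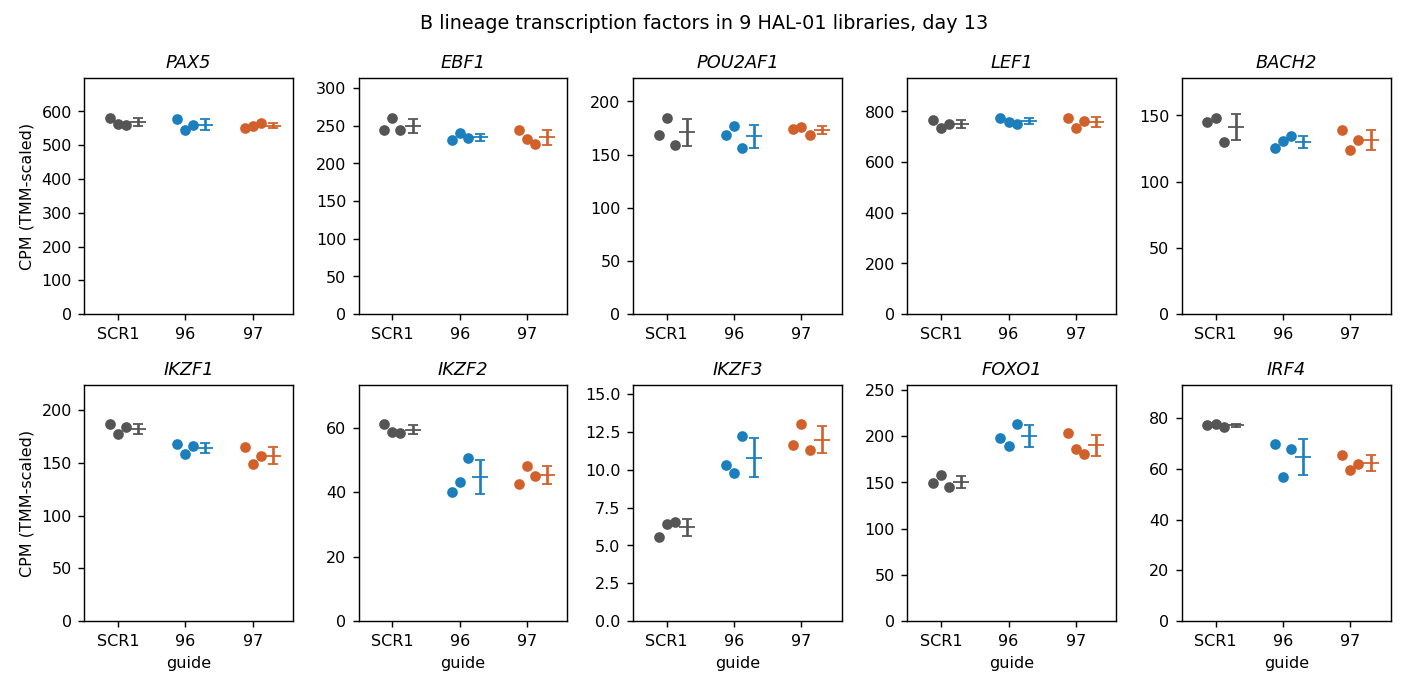
CPM of each factor by guide, with 1 point per library and the mean ± SD of 3 libraries beside the points; every axis starts at 0. The SCR1 points of IKZF1, IKZF2 and IRF4 lie above all 6 KO points, those of IKZF3 and FOXO1 lie below them, and the other 5 genes overlap.

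The Ikaros family was described first, since its 3 members differed in opposite directions. IKZF1 (Ikaros), the best studied tumor suppressor of the group in B-ALL, spans chr7:50304068-50405101 (hg38, plus strand). It was at 187, 177 and 184 CPM in SCR1 replicates 1, 3 and 4. It was at 168, 159 and 166 CPM with sgRNA_96 and at 166, 149 and 156 CPM with sgRNA_97. All KO libraries were below the lowest control, and the fall was modest, with a log2 fold change of -0.19 (SE 0.05, adjusted p = 0.00903). The sgRNA_97 effect passed (-0.22, adjusted p = 0.0131), and that of sgRNA_96 did not (-0.15, adjusted p = 0.0742; 0.0419 in DESeq2). The call for KO rested in part on the deepest control: without SCR1 replicate 1 it was -0.17 with an adjusted p of 0.0566.

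IKZF2 (Helios), known mainly from T cells and stem cells, spans chr2:212999691-213152427 (hg38, minus strand). Its levels were 61.1, 58.8 and 58.5 CPM in SCR1. They were 40.2, 43.2 and 50.5 CPM with sgRNA_96 and 42.6, 48.3 and 45.1 CPM with sgRNA_97. The controls lay close together and well above every KO library, and IKZF2 fell by 0.40 on the log2 scale (SE 0.07, adjusted p = 0.00046), to 0.757 of the control level. The change was -0.41 with sgRNA_96 (adjusted p = 0.00368) and -0.39 with sgRNA_97 (adjusted p = 0.00456). On the TPM scale the groups touched, with sgRNA_97 replicate 4 at 9.987 TPM and SCR1 replicate 4 at 9.984 TPM. Part of the IKZF2 TPM was assigned to IKZF2-206, a transcript of 602 bases with 0 to 28 counts per library. It held 25.6% in sgRNA_97 replicate 4, 0 to 17.2% in the other KO libraries and 20.6 to 28.5% in SCR1. Since TPM divide by length, these values rest in part on few reads, and the overlap without IKZF2-206 was not tested. The call with sgRNA_97 was lost on length-scaled counts (adjusted p = 0.0579), and in limma on log2(TPM + 1) the calls of both guides were lost (adjusted p = 0.0521 with sgRNA_96 and 0.131 with sgRNA_97).

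IKZF3 (Aiolos), which rises as normal pre-B cells mature, spans chr17:39757718-39864312 (hg38, minus strand). It was at 5.57, 6.44 and 6.57 CPM in SCR1. With sgRNA_96 it was at 10.3, 9.78 and 12.3 CPM, and with sgRNA_97 at 11.7, 13 and 11.3 CPM. The lowest KO value was thus well above the highest control, on 113 to 247 counts per library. The log2 fold change of 0.89 (SE 0.12, adjusted p = 9.07e-05) was the largest among the 10 factors and corresponds to a 1.85-fold rise. It was 0.81 with sgRNA_96 (adjusted p = 0.0012) and 0.96 with sgRNA_97 (adjusted p = 0.000309). In limma on log2(TPM + 1) the sgRNA_96 call was lost (adjusted p = 0.0991) and the sgRNA_97 call was kept (adjusted p = 0.0444). On log2(TPM + 0.1) both were lost (adjusted p = 0.107 and 0.0507). The KO call was lost in limma without a filter (adjusted p = 0.0651). Even so, its KO level of 1.53 ± 0.175 TPM (SD, n = 6) was the lowest of the 10.

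Summed over the 3 family members, TPM were 69.5, 73.9 and 65.8 in SCR1 and 55.9 to 63.3 in KO, so that every KO sum lay below every control. IKZF3 made up 1.21 ± 0.101% of this sum in SCR1 (SD, n = 3) and 2.63 ± 0.242% in KO (SD, n = 6), again with no overlap. IKZF1 held most of the sum in both groups, 82.7 ± 0.730% in SCR1 and 83.9 ± 2.31% in KO, and these shares overlapped. The share of IKZF2 was 16.1 ± 0.829% in SCR1 and 13.4 ± 2.23% in KO, with sgRNA_97 replicate 4 at 17.5%, above the controls. The IKZF2 TPM behind these shares include IKZF2-206, the short transcript with few reads. Exact two-sided permutation tests of the shares gave unadjusted p of 0.0119 for IKZF3, the smallest that 84 arrangements can give, 0.429 for IKZF1 and 0.107 for IKZF2. The other family genes, IKZF4 and IKZF5, were at 7.77 against 7.71 CPM and 42.2 against 43.7 CPM (SCR1 against KO), with adjusted p of 0.951 and 0.593.

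FOXO1, the forkhead factor that is held in the cytoplasm when PI3K and AKT are active, spans chr13:40555667-40666641 (hg38, minus strand). It was at 149, 158 and 145 CPM in SCR1. It was at 199, 189 and 213 CPM with sgRNA_96 and at 203, 186 and 181 CPM with sgRNA_97. No KO library came near the control range, and the rise was 1.30-fold, with a log2 fold change of 0.37 (SE 0.05, adjusted p = 0.000157). It was 0.41 with sgRNA_96 (adjusted p = 0.000535) and 0.34 with sgRNA_97 (adjusted p = 0.00205). FOXO1 passed in all 17 alternative analyses of the KO comparison, with an adjusted p of at most 0.025.

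IRF4, an interferon regulatory factor family member that partners with PU.1 in B cells, spans chr6:391739-411443 (hg38, plus strand). The 3 SCR1 libraries were almost equal at 77.3, 77.5 and 76.6 CPM. Those with sgRNA_96 were at 69.9, 56.8 and 67.8 CPM and those with sgRNA_97 at 65.7, 59.6 and 62.0 CPM. The KO libraries spread more widely than the controls and all lay below them, with a log2 fold change of -0.28 (SE 0.06, adjusted p = 0.00419). It was -0.25 with sgRNA_96 (adjusted p = 0.0347) and -0.31 with sgRNA_97 (adjusted p = 0.0115). With sgRNA_96 the call was lost without sgRNA_96 replicate 3, which held the lowest value (-0.16, adjusted p = 0.174), and without any 1 of the 3 controls (adjusted p = 0.0788 to 0.104). In limma on log2(TPM + 1) the KO change of IRF4 was -0.29 with an adjusted p of 0.0557.

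Among the 5 factors that did not pass are PAX5 and EBF1, the central pair of the circuit. PAX5 (chr9:36833269-37034268, minus strand) was at 559 to 582 CPM in SCR1 and at 545 to 577 CPM in KO, with a median of 559. The groups overlapped, the log2 fold change was -0.02 (SE 0.04, adjusted p = 0.696), and its 95% interval ran from -0.10 to 0.05. EBF1 (chr5:158695920-159099916, minus strand) was at 244 to 261 CPM in SCR1 and 226 to 245 CPM in KO, with a median of 233. For EBF1 the log2 fold change was -0.09 (SE 0.04), with an adjusted p of 0.133 (0.0426 before adjustment). Its 95% interval ran from -0.18 to -0.003.

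LEF1 (chr4:108047545-108168956, minus strand) was at 736 to 766 CPM in SCR1 and 736 to 775 CPM in KO, with a median of 760.4. Its log2 fold change was 0.02 (SE 0.04, adjusted p = 0.798, 95% interval -0.06 to 0.09). POU2AF1 (chr11:111352255-111455630, minus strand) was at 159 to 185 CPM in SCR1 and 156 to 177 CPM in KO, with a median of 171. Its log2 fold change was -0.01 (SE 0.05, adjusted p = 0.948, 95% interval -0.12 to 0.11), and its sign changed with the analysis. BACH2 (chr6:89926528-90296843, minus strand) was at 130.0 to 148 CPM in SCR1 and 124 to 139 CPM in KO, with a median of 131. The log2 fold change of BACH2 was -0.11 (SE 0.05), with an adjusted p of 0.142 (0.0469 before adjustment) and a 95% interval of -0.22 to -0.002. The intervals of these 5 genes are narrow, and none of them reaches the estimated change of FOXO1, IKZF2 or IKZF3 in size. The BACH2 interval does include the estimated change of IKZF1 (-0.19), which passed.

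Each guide was then set against SCR1 on its own. With sgRNA_96, 4 of the 10 factors passed (IKZF2, IKZF3, FOXO1 and IRF4), where 11.2% of the genes tested did. With sgRNA_97 these 4 and IKZF1 passed, where 15.1% did. The guides share their 3 control libraries, so their values are given side by side and not as separate evidence. Compared directly, sgRNA_97 with sgRNA_96, none of the 10 passed, and 3 genes or 0.0208% of those tested did. None of the 10 had an unadjusted p under 0.05 in that comparison, and DESeq2 also called none. The differences ran from -0.08 for FOXO1 (SE 0.06, 95% interval -0.20 to 0.05) to 0.15 for IKZF3 (SE 0.13, 95% interval -0.12 to 0.43). Leaving out sgRNA_97 replicate 3 took the number called with sgRNA_97 from 5 to 3, with IKZF1 (adjusted p = 0.0805) and IRF4 (adjusted p = 0.0663) no longer past the threshold.

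**Figure D3:**
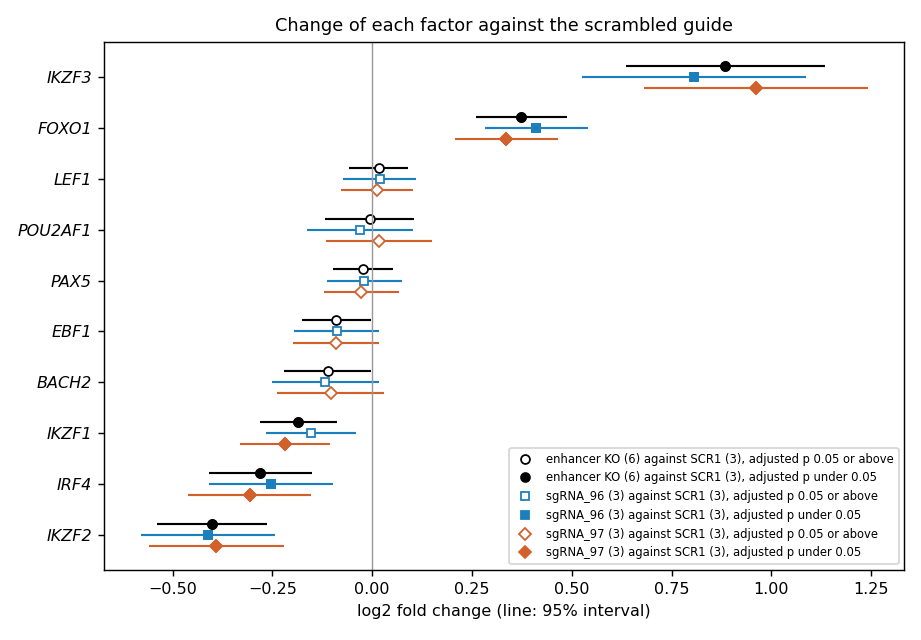
Log2 fold change of each factor with its 95% interval for KO (6 libraries), sgRNA_96 (3) and sgRNA_97 (3), each against the same 3 SCR1 libraries; filled symbols have an adjusted p under 0.05. IKZF3 and FOXO1 lie to the right of 0, IKZF1, IRF4 and IKZF2 to the left, and the 2 guides' intervals overlap for every gene.

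Transcript makeup was examined next, as the share of each gene's TPM that Salmon assigned to its most abundant transcript. In 4 genes a single transcript held the bulk of it: FOXO1-201 (99.6% in SCR1 and 99.9% in KO), POU2AF1-201 (97% and 96.5%), BACH2-201 (87.4% and 88.6%) and IRF4-201 (87.2% and 90.4%). LEF1 was the most divided, with LEF1-201 at 25.4% and 23.6%, followed by LEF1-211 at 16.8% and 17.8%, which has no annotated coding sequence. EBF1-201 held 48.1% and 47.3%, IKZF1-201 44.5% and 45.0%, and IKZF2-207 52.5% and 57.3%. None of the 10 leading shares differed past the threshold in an exact two-sided permutation test over 84 arrangements with adjustment over the 10 genes, and none had an unadjusted p under 0.05. The smallest p the design allows, 0.0119, would be 0.119 after adjustment if 1 gene alone reached it.

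PAX5 was divided by its start. Its leading transcript, PAX5-218, starts at 37025748, inside the gene, and encodes 283 residues in the annotation, while PAX5-201 starts at 37034268 and encodes the full 391 residues. PAX5-218 held 77.6, 69.8 and 69.7% of PAX5 TPM in SCR1 and 58.4 to 74.4% in KO (exact permutation p = 0.357). PAX5-201 held 4.91, 9.34 and 4.89% in SCR1 and 10.7 to 26.5% in KO. The KO shares of PAX5-201 were thus all above the controls, but spread widely, and the mean difference of 9.28 percentage points had an exact permutation p of 0.0595, before any adjustment over the 10 genes. Another transcript with the same start, PAX5-204, went the other way in its mean, 8.78% in SCR1 and 4.83% in KO. For IKZF3, all TPM went to IKZF3-203 in the KO libraries and in SCR1 replicate 3, whereas SCR1 replicate 4 had its whole TPM on IKZF3-217. The 2 transcripts are 9788 and 9787 bases long, the division between them rests on few reads, and the gene total does not depend on it.

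Promoters were read from RefSeq (GRCh38.p14), as windows of 250 bases before to 50 after a start site, to see whether the disrupted core or the factors' own motifs occur there. There were 11 windows for 8 of the 10 genes, and none was at hand for IKZF3 and POU2AF1. Several were not at the start of the transcript that led in these cells. The start sites of the EBF1, LEF1 and PAX5 windows lay 1960, 2631 and 8520 bases from it. Those of further IKZF1 windows lay 3984 and 14332 bases away. On both strands the HLF-type core TTACATAA occurred in none of the 11 windows and in 0.890% of all 34943 windows, and the related core TTACGTAA in none and in 0.126%. A loose form of the MEF2 motif, CTANNNNTAG, in which N is any base, was present in 1 window, upstream of IKZF2, and in 2.74% of all windows. The match there has a G among the N bases, so it does not meet the stricter MEF2 motif, which takes only A or T there. The same window held the LEF1 motif CTTTGA, found in 12.9% of all. The Ikaros core TGGGAA occurred in 4 windows (EBF1, IKZF1, IRF4 and LEF1) and in 24.0% of all. The FOXO motif GTAAACA and the octamer ATGCAAAT were in none of the 11 and in 3.42% and 1.77% of all, and the composite motif GGAANNGAAA was in 1 window, of EBF1, and in 2.82% of all. The 3 windows with a match among the factors that passed are shown, since these are the sequences in which the letters were found, with every match in capitals.
IKZF2, chr2:213152407-213152706 (minus strand): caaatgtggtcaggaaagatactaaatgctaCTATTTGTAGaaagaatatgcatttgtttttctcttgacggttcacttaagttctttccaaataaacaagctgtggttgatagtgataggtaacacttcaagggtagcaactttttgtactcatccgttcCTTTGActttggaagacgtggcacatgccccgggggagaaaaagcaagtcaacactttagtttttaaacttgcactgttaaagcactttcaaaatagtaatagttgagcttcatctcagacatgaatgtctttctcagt
IKZF1, chr7:50304466-50304765 (plus strand): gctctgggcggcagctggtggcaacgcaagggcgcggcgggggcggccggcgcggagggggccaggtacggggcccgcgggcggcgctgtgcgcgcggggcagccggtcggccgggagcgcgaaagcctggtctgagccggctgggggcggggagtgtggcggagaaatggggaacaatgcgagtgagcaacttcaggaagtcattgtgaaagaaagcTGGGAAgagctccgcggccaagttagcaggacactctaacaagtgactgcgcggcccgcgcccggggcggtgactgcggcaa
IRF4, chr6:391502-391801 (plus strand): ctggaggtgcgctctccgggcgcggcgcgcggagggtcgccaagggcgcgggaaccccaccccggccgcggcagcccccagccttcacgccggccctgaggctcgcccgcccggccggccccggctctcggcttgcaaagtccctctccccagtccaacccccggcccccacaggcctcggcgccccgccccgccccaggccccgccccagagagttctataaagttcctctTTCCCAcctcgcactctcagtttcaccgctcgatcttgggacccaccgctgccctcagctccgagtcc
The IKZF1 and IRF4 windows sit at the start of the leading transcripts, IKZF1-201 and IRF4-201, and the IKZF2 window belongs to a start 844 bases from that of IKZF2-207. A match is a string of letters in a window, and binding was not measured in these libraries.

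The genes that these factors are known to control were taken as lists, which were chosen with earlier results of these data known. FOXO1 targets of lymphocytes had 12 testable members among 14, of which 7 rose, 1 fell and 4 did not pass, with a median log2 fold change of 0.29. Over all 14436 genes tested, 10.1% passed as higher and 10.6% as lower, with a median of 0.003. These shares are the background for each list below as well. TXNIP, an inhibitor of glucose uptake, was at 61.8 ± 6.01 CPM in SCR1 and 137 ± 21.6 CPM in KO (SD, n = 3 and 6), a rise of 1.15 on the log2 scale (adjusted p = 5.23e-06). RAG1, the recombinase that cuts the immunoglobulin loci, rose from 275 ± 18.7 to 501 ± 30.3 CPM (SD, n = 3 and 6), or by 0.87 (adjusted p = 1.09e-07). PIK3IP1, an inhibitor of PI3K, rose by 0.62 (adjusted p = 0.00155), and SESN1, a stress-induced inhibitor of mTORC1, rose by 0.38 (adjusted p = 0.000163). RAG2, the partner of RAG1, also rose, by 0.25 (adjusted p = 0.00143). CDKN1B, a brake on the cell cycle, rose by 0.16 (adjusted p = 0.0269, 0.13 with sgRNA_96 and 0.0449 with sgRNA_97). BCL2L11 (BIM), a cell death gene that FOXO factors activate, fell by 0.26 (adjusted p = 0.00987, 0.0275 with sgRNA_96 and 0.0545 with sgRNA_97). IL7R, the interleukin-7 receptor chain, was at 443 and 445 CPM (adjusted p = 0.931), and CCR7 and KLF2 were too low to test.

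Genes activated by PAX5 or EBF1 had 15 testable members among 16, of which 4 rose, 1 fell and 10 did not pass, with a median of 0.10. CIITA, the master regulator of MHC class II genes, rose from 195 ± 7.31 to 284 ± 13.2 CPM (SD, n = 3 and 6), or by 0.54 (adjusted p = 1.82e-06). CD72, a coreceptor, rose by 0.47 (adjusted p = 0.00364), BLNK, the adaptor below the pre-B cell receptor, by 0.34 (adjusted p = 0.000294), and VPREB3 by 0.29 (adjusted p = 0.00744). With sgRNA_96 alone VPREB3 did not pass (adjusted p = 0.0689). FCRLA was the gene that fell, by 0.26 (adjusted p = 0.0494; 0.165 with sgRNA_96 and 0.0967 with sgRNA_97). CD79A, a classical target, had an adjusted p of 0.435. Of the genes that PAX5 represses, 4 of 6 could be tested (median -0.01), and EMB, a membrane glycoprotein, rose by 0.24 (adjusted p = 0.014), while FLT3, CSF1R and NOTCH1 did not pass. With sgRNA_96 alone EMB did not pass (adjusted p = 0.0645).

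Targets of LEF1 and the related TCF factors had 5 testable members among 11, of which 2 rose, 1 fell and 2 did not pass, with a median of 0.11. AXIN2, a feedback inhibitor of WNT signaling, rose from 26.1 ± 3.35 to 61.0 ± 11.1 CPM (SD, n = 3 and 6), or by 1.21 (adjusted p = 9.06e-06), and LGR5, a receptor for R-spondins, by 0.54 (adjusted p = 6.18e-06). TCF7, which encodes the LEF1 paralogue TCF-1, was low at 3.48 ± 1.56 CPM in SCR1 and 1.69 ± 0.543 CPM in KO (SD, n = 3 and 6), a fall of 1.03 on the log2 scale (adjusted p = 0.0242; 0.058 with sgRNA_96 and 0.11 with sgRNA_97). MYC and ZNRF3 did not pass (adjusted p = 0.178 and 0.0919). LEF1 itself did not pass, as given above.

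Of 7 plasma cell genes 5 could be tested, of which 2 rose, 1 fell and 2 did not pass, with a median of 0.28. XBP1, which drives the secretory program, rose by 0.29 (adjusted p = 0.000101), MZB1 rose by 0.28 (adjusted p = 0.00172), and SDC1 (CD138) fell by 0.42 (adjusted p = 0.000573). PRDM1, the factor that BACH2 represses, was at 2.69 CPM in SCR1 and 3.46 CPM in KO (adjusted p = 0.151).

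Other transcription factors of B cell development were all testable, and of 19 genes 3 rose and 5 fell, with a median of -0.05. Among all genes tested, 10.1% passed as higher and 10.6% as lower. BCL6, a repressor of transcription, fell from 42 ± 2.44 to 27.2 ± 1.34 CPM (SD, n = 3 and 6), or by 0.62 (adjusted p = 5.77e-06). RUNX1 fell by 0.37 (adjusted p = 0.000196). BCL11A rose by 0.39 (adjusted p = 0.000277), and so did TCF4, an E protein, by 0.39 (adjusted p = 1.39e-05). Among 30 paralogues of the 10 factors, 18 could be tested, and 5 rose and 1 fell, with a median of 0.04. FOXO4 (0.33, adjusted p = 0.0292) and FOXO3 (0.23, adjusted p = 0.0195), which are close relatives of FOXO1, were among those that rose. So were EBF3 (0.20, adjusted p = 0.00777), IRF2 (0.19, adjusted p = 0.018) and TCF7L2 (0.18, adjusted p = 0.0352). FOXO4, FOXO3 and TCF7L2 passed with neither guide alone (adjusted p = 0.0563 to 0.116). IRF2 did not pass with sgRNA_97 (adjusted p = 0.109), and EBF3 passed with each guide. EBF3 was at 66.2 CPM in SCR1 and 75.9 CPM in KO. IRF8, the relative that overlaps IRF4 in function, was at 24.6 and 23.6 CPM (adjusted p = 0.598), and BACH1 at 44.4 and 47.9 CPM (adjusted p = 0.155). The remaining paralogues with a mean TPM of at least 1 were PAX8, EBF4, FOXO6, IRF1, IRF3, IRF5, IRF7 and IRF9 besides IKZF4 and IKZF5, and their adjusted p ran from 0.359 to 0.951.

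Of 14 cofactors, among them subunits of the NuRD complex that Ikaros proteins recruit and the TLE corepressors of PAX5 and LEF1, 13 could be tested (median -0.02). CRBN, the substrate receptor through which immunomodulatory drugs degrade IKZF1 and IKZF3, was the single one to pass, with a rise of 0.17 (adjusted p = 0.0474; 0.155 with sgRNA_96 and 0.0933 with sgRNA_97). The other 12 had adjusted p from 0.0537 (HDAC1, 164 and 149.7 CPM) to 0.927 (TLE1). CTNNB1, which encodes β-catenin, was at 260.4 and 272 CPM (adjusted p = 0.336).

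**Figure D4:**
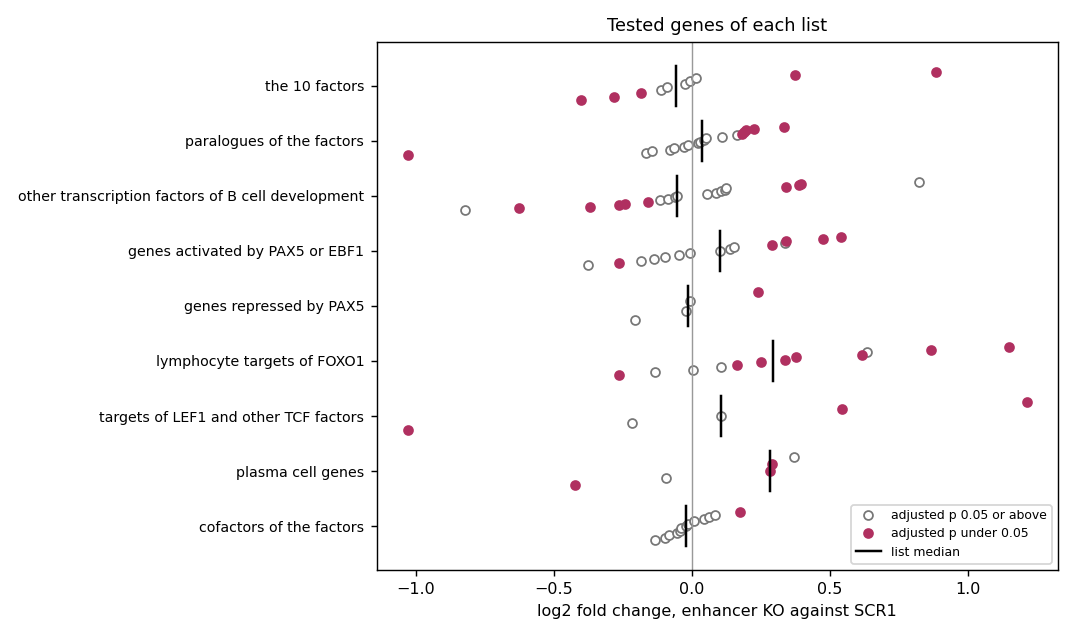
Log2 fold change in KO against SCR1 for each testable gene of the 10 factors and of 8 related lists, with filled points for an adjusted p under 0.05 and a bar at each list's median. The FOXO1 target list has its median at 0.29, the cofactors lie close to 0, and most lists hold genes on both sides.

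For the 5 factors that passed, the genes with the most similar profile of log2 CPM over the 9 libraries were looked up, as a description. All 9 points share the split into KO and control. For IKZF1 these were ANXA2 (Pearson's r = 0.988), ICMT (0.987) and SRSF9 (0.986), and for IKZF2 PSMC3IP (0.971), RFC5 (0.957) and KIF11 (0.955), which take part in recombination, DNA replication and mitosis. For IKZF3 they were ERCC4 (0.982), CTSS (0.981) and NDUFAF6 (0.981), for FOXO1 TRIM38 (0.989), BMP2K (0.981) and TRANK1 (0.978), and for IRF4 PSME3 (0.984), SOD2-OT1 (0.984) and SHISA2 (0.977). Every one of these 15 genes had the same sign of change as its factor, which follows from their choice by correlation over the same libraries. SOD2-OT1 was the one that did not pass (adjusted p = 0.101).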

How the data were processed

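The authors trimmed the reads, aligned them with STAR to GRCh38 and quantified transcripts with Salmon 1.10.1 (the tools and build are those of the submitters' processing notes). They deposited estimated counts per transcript, without normalization, and TPM, which scale to 1000000 per library, for 252835 transcripts that all match GENCODE release 44. Salmon divides reads shared by overlapping transcripts by likelihood. Counts were summed per gene and rounded. filterByExpr (minimum count 10) kept 14436 genes, TMM scaled the library sizes, and edgeR 4.0.16 (R 4.3.3) tested differences with a threshold of 0.05 after Benjamini-Hochberg adjustment over all genes tested. The SE is the log2 fold change divided by the root of F. KO pooled 6 libraries against 3; the guides came from a fit of 3 groups. Alternatives were DESeq2 1.42.0, RLE scaling, no filter, limma 3.58.1 on log2(TPM + 1) and log2(TPM + 0.1), length-scaled counts, a replicate block and leaving out each library. The tests were run on simulated counts with planted changes larger than the main estimates for any of the 10 factors. Recovery of changes as small as those reported here was therefore not tested. The members and lists were chosen with earlier results of these data known. Of each list, up to 4 genes past the threshold with the largest change and at least 1 CPM are named, as are paralogues of at least 1 TPM; other list genes were named after their values were seen. Similar profiles are the 3 highest Pearson correlations. Groups came from the sample titles.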

Additional observations from a re-analysis of the deposited data

How the results depend on the processing

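In KO against SCR1 between 4 and 5 of the 10 factors passed under 16 of 17 alternatives, with 4 to 5 when a library was left out. In limma on log2(TPM + 1) without a filter on low values the number was 1 for KO and 0 for each guide. With the filter, limma on log2(TPM + 1) called 1 factor with sgRNA_96 and 3 with sgRNA_97, and on log2(TPM + 0.1) it called 1 and 2. The cause was not tested. Leaving out a library gave 3 to 4 with sgRNA_96 and 3 to 5 with sgRNA_97. The replicate block changed none of these counts (5, 4 and 5), and same-numbered libraries did not deviate together (correlations from -0.066 to 0.055). Neither sgRNA_97 against sgRNA_96 nor the leading transcripts gave a call under any alternative run. For the transcripts this carries little weight, since 1 gene alone could reach no adjusted p below 0.119. Leaving out a library leaves fewer arrangements and a larger smallest p. No factor that passed changed sign. Among those that did not pass, POU2AF1 in KO turned positive in limma (0.013 on log2(TPM + 1), also without a filter, and 0.014 on log2(TPM + 0.1)) and on length-scaled counts (0.009), and ran from -0.055 to 0.049 over the leave-outs. Leave-outs also turned LEF1 (-0.002 to 0.028 in KO, -0.007 to 0.036 with sgRNA_97), PAX5 with sgRNA_96 (-0.041 to 0.001) and POU2AF1 (-0.08 to 0.025 with sgRNA_96, -0.031 to 0.073 with sgRNA_97). Over all genes tested, 2984 passed in KO, and 1240, 1246 and 648 did in the limma fits, 1520 on length-scaled counts and 1503 and 1813 without SCR1 replicates 1 and 4. IKZF3 rests on few reads.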
